A study of Mus musculus with 27 samples.

Results

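The replication-dependent histone genes encode the core histones H2A, H2B, H3 and H4, around which DNA is wrapped, and the linker histone H1. Most of these genes lie side by side in a few clusters. They were taken as every gene of the RNA table whose symbol starts with Hist1h, Hist2h, Hist3h or Hist4h, which gave 65 of 38582 genes, 64 of them typed as protein-coding. By class there were 6 genes of H1, 17 of H2a, 17 of H2b, 12 of H3 and 13 of H4. By cluster, 52 belonged to Hist1 on chromosome 13, 9 to Hist2 on chromosome 3, 3 to Hist3 on chromosome 11 and 1 to Hist4 on chromosome 6 (mouse build mm9). Where neighbouring genes stood more than 100 kb apart the Hist1 genes were split into blocks, which held 17, 4, 29 and 2 genes along the chromosome.

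The study asked where the RNA-binding protein WDR43, a nucleolar factor of ribosomal RNA processing, sits on chromatin and what its loss does to transcription in mouse embryonic stem cells (mES cells, pluripotent cells kept in culture with serum and LIF). RNA was measured in wildtype mES cells with shWDR43 (short hairpin RNA against Wdr43) or with the control hairpin shCtl, in 2 libraries each. In wildtype mES cells with shWDR43 or shCtl, chromatin immunoprecipitation sequencing (ChIP-seq) gave 2 peak lists for each form of RNA polymerase II (Pol II): hypoP with the antibody 8WG16, Ser5P (phosphorylated on serine 5, typical of initiating polymerase) and Ser2P (phosphorylated on serine 2, typical of elongating polymerase). For the shWDR43 lists of hypoP the labels give the hairpin in the title alone, with no genotype. The sample numbers of these lists also stand apart from those of the hypoP shCtl lists. Whether the hypoP groups were processed together is not stated. WDR43 itself was mapped with a FLAG antibody in 1 list each of cells with Fbio-tagged WDR43 given ActD (actinomycin D, which intercalates into DNA and stops transcription), DRB (which blocks the kinase that frees paused polymerase) or the solvent DMSO, and in 1 list each of cells named FB and cFB-KI, with no treatment given. The numbers 1 and 2 of the ChIP lists are not said to be separate cultures, so their spread may be technical.

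Messenger RNAs of these genes are made in S phase, when new DNA needs new histones, at nuclear bodies that gather the coactivator NPAT and the processing machinery. They have no introns in the usual case and end in a conserved stem-loop bound by SLBP instead of a poly(A) tail, and the 3′ end is cut under the guidance of the U7 small nuclear RNA. A minority of transcripts from the same genes carry a poly(A) tail. The RNA libraries were made from mRNA isolated with Dynabeads, which capture poly(A) tails, so the values cover the captured share of histone RNA, and a change in amount cannot be told apart from a change in that share. In the same way, fewer cells in S phase and less RNA per cell cannot be told apart in bulk samples.

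Many H2a and H2b genes stand head to head with a short shared promoter, and the classes differ in their promoter motifs. As examples, 7 promoters are shown of genes whose RNA was called lower or higher in shWDR43 by the test described below. They are the opposed pair Hist1h2ah (lower in shWDR43) and Hist1h2bk (higher), Hist1h2ab (lower), the H2a gene that rose, Hist2h2ac, and 1 higher gene each of H4, H3 and H1. Each line holds the 250 bases before the RefSeq start of the gene, 5′ to 3′ on the strand of the gene, from RefSeq on GRCm38.p6. Capitals mark letter matches on either strand and at any position. The motifs are the octamer ATTTGCAT (bound by Oct factors), TATAAA (letters of the TATA box), CCAAT (bound by the factor NF-Y) and AAACACA (the H1 box). A match does not show a working element, and the TATAAA match of Hist1h2bk lies on the opposite strand.
Hist1h2ah: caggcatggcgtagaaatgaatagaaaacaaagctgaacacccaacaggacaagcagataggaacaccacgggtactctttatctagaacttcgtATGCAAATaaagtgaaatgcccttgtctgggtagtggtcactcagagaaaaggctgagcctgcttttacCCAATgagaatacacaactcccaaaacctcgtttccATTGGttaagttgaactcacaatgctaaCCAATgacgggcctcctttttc
Hist1h2bk: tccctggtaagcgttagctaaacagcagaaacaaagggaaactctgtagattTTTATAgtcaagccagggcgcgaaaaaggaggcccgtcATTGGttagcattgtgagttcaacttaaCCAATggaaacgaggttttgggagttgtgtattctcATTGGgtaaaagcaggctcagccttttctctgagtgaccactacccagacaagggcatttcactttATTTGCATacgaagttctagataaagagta
Hist1h2ab: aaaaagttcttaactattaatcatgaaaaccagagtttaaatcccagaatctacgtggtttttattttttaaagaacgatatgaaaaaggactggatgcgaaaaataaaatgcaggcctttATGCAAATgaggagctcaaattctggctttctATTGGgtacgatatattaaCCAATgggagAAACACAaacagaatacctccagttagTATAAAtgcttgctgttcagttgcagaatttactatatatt
Hist2h2ac: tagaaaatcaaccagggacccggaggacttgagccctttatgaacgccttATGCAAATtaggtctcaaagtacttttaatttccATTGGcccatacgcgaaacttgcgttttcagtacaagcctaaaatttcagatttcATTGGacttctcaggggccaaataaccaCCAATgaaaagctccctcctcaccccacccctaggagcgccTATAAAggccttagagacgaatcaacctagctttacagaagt
Hist1h4i: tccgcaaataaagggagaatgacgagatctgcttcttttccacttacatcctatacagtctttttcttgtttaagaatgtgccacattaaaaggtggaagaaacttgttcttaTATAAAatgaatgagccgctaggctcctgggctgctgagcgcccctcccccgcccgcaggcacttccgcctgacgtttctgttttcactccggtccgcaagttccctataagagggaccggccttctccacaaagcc
Hist1h3d: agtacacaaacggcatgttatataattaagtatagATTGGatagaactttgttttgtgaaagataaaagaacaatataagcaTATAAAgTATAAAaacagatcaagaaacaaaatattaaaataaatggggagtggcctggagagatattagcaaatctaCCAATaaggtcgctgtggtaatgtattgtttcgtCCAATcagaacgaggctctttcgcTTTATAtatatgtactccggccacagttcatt
Hist1h1c: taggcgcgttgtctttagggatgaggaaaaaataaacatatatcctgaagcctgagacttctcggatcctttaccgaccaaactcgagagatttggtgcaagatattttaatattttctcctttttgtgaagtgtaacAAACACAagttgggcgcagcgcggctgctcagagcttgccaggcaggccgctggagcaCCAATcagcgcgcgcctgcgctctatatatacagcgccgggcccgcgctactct

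The motifs were unevenly spread over the 60 windows found for 59 of the 65 genes. The octamer was in 14 of 60 windows (23.3%), against 1.60% of 32851 promoter windows of the same length, and lay in 7 of 17 H2a and 7 of 15 H2b windows but in 0 of 6 H1, 0 of 10 H3 and 0 of 12 H4 windows. AAACACA was in 5 of 6 H1, 2 of 17 H2a, 2 of 15 H2b, 0 of 10 H3 and 0 of 12 H4 windows, against 6.25% of all windows. CCAAT was in all 6 H1, all 17 H2a and all 15 H2b windows, in 8 of 10 H3 and in 3 of 12 H4 windows, against 33.9% of all windows. TATAAA was in 29 of 60 windows (48.3%) and in 12.4% of all. Partner windows of a pair overlap, so a match can count for both: the windows of Hist1h2ah and Hist1h2bk share 177 bases, and the capitals of the octamer and of CCAAT in those lines are the same bases read from both strands. Among H2a windows the octamer was in 3 of the 10 genes whose RNA was lower and in the single gene whose RNA was higher. It was also in both of the 2 genes not called and in 1 of the 4 not tested. The lower H2a genes printed above, Hist1h2ah and Hist1h2ab, are both among the 3 with an octamer, so they are not typical of the 10. Hist1h2ao, Hist1h2ad, Hist1h2af, Hist1h2ai and Hist1h2an, lower genes with more RNA than Hist1h2ab, had no octamer match.

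The knockdown was visible in the targeted gene. Wdr43 (NM_175639, chromosome 17, 71965555 to 72008371) had 21.2 and 20.7 FPKM (fragments per kilobase, corrected for library size, here on a spike-in scale) in the shWDR43 libraries, against 82.3 and 78.2 FPKM in the shCtl libraries, and its log2 fold change was -1.89 ± 0.12 (SE; adjusted p = 0.000751 in limma, by the method of Benjamini and Hochberg). All genes together summed to 687051 and 681178 FPKM with shWDR43, against 1015232 and 1040749 FPKM with shCtl. The histone genes made up 0.102% and 0.0935% of those totals with shWDR43, against 0.108% and 0.127% with shCtl. Read depth is unknown, since the table holds no counts. The 9 pluripotent cell markers summed to 2744 and 2575 FPKM with shWDR43, against 5027 and 5131 FPKM with shCtl. The 10 fibroblast markers summed to 46.1 and 75.1 FPKM with shWDR43, against 33.7 and 45.8 FPKM with shCtl, with Lum and Dcn listed at 0. The 6 primitive endoderm markers summed to 109.6 and 110.9 FPKM with shWDR43, against 80.2 and 82.7 FPKM with shCtl, with Sox17 at 0.4 FPKM or less. The 5 trophectoderm markers summed to 9.7 and 9.7 FPKM with shWDR43, against 4.3 and 4.9 FPKM with shCtl, with Cdx2 and Elf5 at 0.3 FPKM or less. By the test described below, in which 6.10% of all tested genes were higher and 42.7% lower, 8 of 9 pluripotent cell markers were lower and 0 higher. Of 6 tested fibroblast markers Tagln was higher (1.32) and Thy1 lower (-1.35). Of the primitive endoderm markers 2 of 5 tested were higher and 0 lower. Of the trophectoderm markers 2 of 3 tested were higher, and Eomes had 1.3 and 1.0 FPKM with shWDR43, against 2.3 and 2.0 FPKM with shCtl, and was not called (-0.55, adjusted p = 0.0564 in limma). The part of these markers in the histone results was not tested.

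The RNA of histone genes moved both ways in shWDR43 cells, and the direction followed the class: 10 of 11 tested H2a genes of the Hist1 cluster were lower, while genes of H2b, H3 and H4 were more often higher than lower. The difference between classes was not tested as such. The test was limma on log2(FPKM + 1), fitted on the 12452 genes with a mean of at least 1 FPKM, with an adjusted p under 0.05 as the threshold. Of the 65 histone genes 55 entered the fit, 14 were higher, 11 were lower and 30 were not called. Over all tested genes 6.10% were called higher and 42.7% lower, 48.8% in all. The median log2 fold change of the 55 was 0.32, against -0.39 over all tested genes. Both shWDR43 libraries were above both shCtl libraries for 21 histone genes (12.6% of all tested genes) and below them for 12 (63.6% of all tested genes). Leaving out any 1 of the 4 libraries left 0 genes called in limma in either direction, with 1 residual degree of freedom and the lone library assumed to vary like the other group. Counted by an unadjusted p under 0.05, each such fit had between 5 and 13 higher histone genes and between 9 and 12 lower ones, against 18 and 11 with all libraries, and all 25 called genes kept their sign in each. With no filter on low values 0 histone genes were called in either direction, while all 25 kept their sign. With each library centred on its median, which shifts every log2 fold change by 0.33, 22 were higher and 9 lower.

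**Figure D1:**
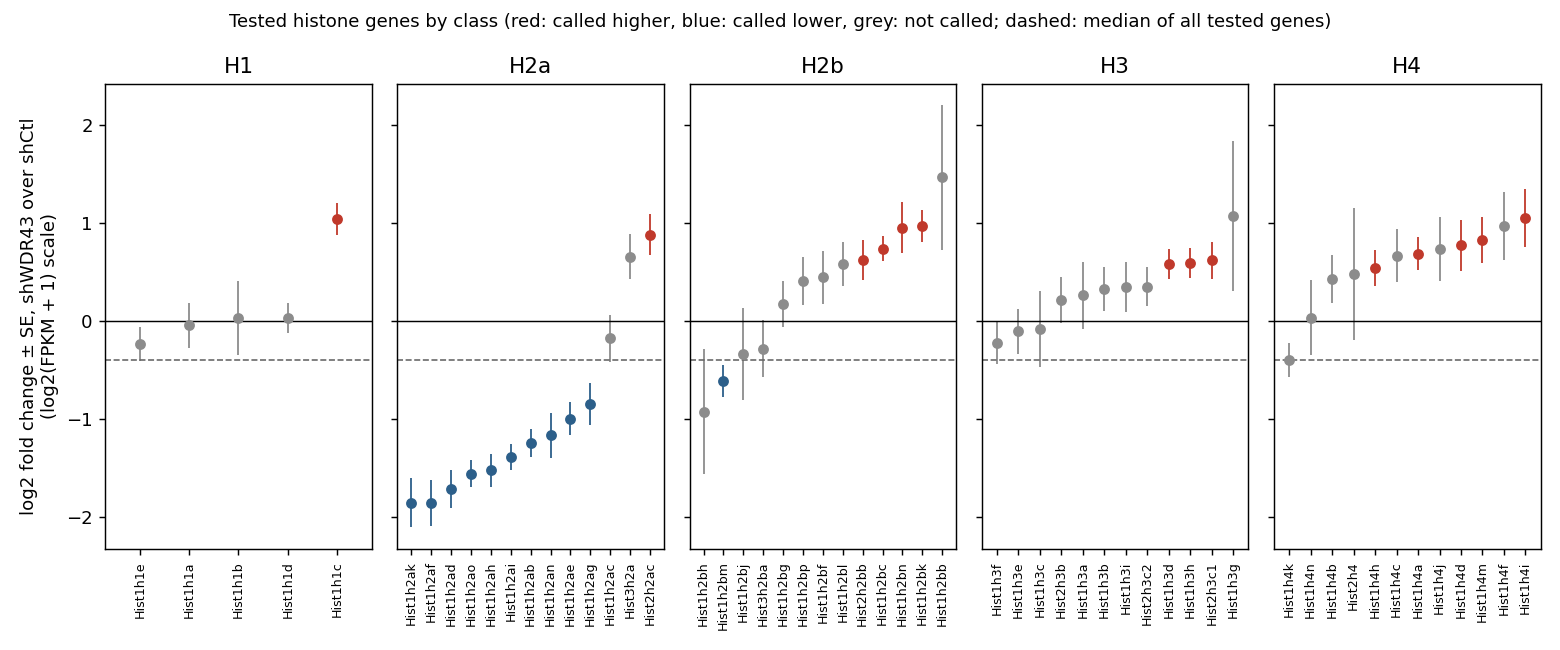
Log2 fold change (shWDR43 over shCtl, log2(FPKM + 1) scale) of each of the 55 tested histone genes, by class, with its standard error from limma. Of the 13 H2a genes 10 are called lower, all below 0, while the 5 called H4 genes all lie above 0, and the dashed line marks the median of all tested genes at -0.39.

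H2a had the largest summed FPKM of the 5 classes in each library and held 10 of the 11 lower genes. H2A pairs with H2B on the outer surface of the nucleosome. Of 13 tested H2a genes 10 were lower, 1 was higher and 2 were not called, with a median log2 fold change of -1.24. Within the Hist1 cluster 10 of 11 were lower and 0 higher, and the median was -1.38. Hist1h2ao (NM_001177544, chromosome 13, 21902236 to 21902749), the member with the most RNA, had 116.4 and 100.9 FPKM with shWDR43, against 294.1 and 348.4 FPKM with shCtl. The libraries did not overlap, and the log2 fold change was -1.55 ± 0.14 (SE; limma, adjusted p = 0.00107). Its locus overlaps that of Hist1h2ap, which was listed at 0 in every library, so reads of that overlap may have been given to Hist1h2ao alone.

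The other abundant H2a genes had the same order of libraries. Hist1h2ad had 63.2 and 44.8 FPKM with shWDR43, against 157.4 and 197.6 FPKM with shCtl, and Hist1h2ah (chromosome 13, 22127035 to 22127421) had 50.7 and 42.1 FPKM with shWDR43, against 118.3 and 152.6 FPKM with shCtl. Hist1h2af had 43.0 and 25.3 FPKM with shWDR43, against 113.2 and 131.1 FPKM with shCtl. In each of these genes both shWDR43 libraries stood well below both shCtl libraries. Hist1h2ai had 29.6 and 30.7 FPKM with shWDR43, against 74.3 and 86.8 FPKM with shCtl. Hist1h2an had 21.1 and 31.2 FPKM with shWDR43, against 49.6 and 69.5 FPKM with shCtl. The log2 fold changes were -1.71 for Hist1h2ad, -1.52 for Hist1h2ah, -1.85 for Hist1h2af, -1.38 for Hist1h2ai and -1.16 for Hist1h2an, with adjusted p (limma) from 0.00109 to 0.00665.

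H2a genes with less RNA were lower too. Hist1h2ak had 0.9 and 2.1 FPKM with shWDR43, against 8.6 and 7.0 FPKM with shCtl, a log2 fold change of -1.85 ± 0.25 (SE; limma, adjusted p = 0.00209). Hist1h2ab had 13 and 11.2 FPKM with shWDR43, against 28.3 and 31.7 FPKM with shCtl (-1.24), Hist1h2ae 9.8 and 9.9 FPKM with shWDR43, against 17.6 and 24.1 FPKM with shCtl (-0.99), and Hist1h2ag 6.0 and 6.6 FPKM with shWDR43, against 9.6 and 15.3 FPKM with shCtl (-0.85). Hist1h2ac, with 1.3 and 1.0 FPKM with shWDR43 and 1.1 and 1.8 FPKM with shCtl, was the tested Hist1 gene of this class that was not called. Outside Hist1 the values lay the other way: Hist2h2ac (NM_175662, chromosome 3, 96024378 to 96024767) had 5.6 and 7.2 FPKM with shWDR43, against 2.4 and 3.7 FPKM with shCtl, and rose by 0.88 ± 0.21 (log2, SE; limma, adjusted p = 0.0129). Hist3h2a had 1.8 and 2.3 FPKM with shWDR43, against 0.7 and 1.2 FPKM with shCtl, with a log2 fold change of 0.65 that was not called (adjusted p = 0.0509). The difference between the clusters was not tested. Hist2h2aa2, Hist2h2ab, Hist1h2ap and the testis-specific Hist1h2aa were listed at 0 in all 4 libraries. Hist2h2aa2 and Hist2h2ab overlap other loci of the table, and zeros can also be failed estimates, since the variant H2afx was listed at 0 as well.

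Among H2b genes, whose product is the partner of H2A, 4 of 13 tested were higher and 1 was lower, with a median log2 fold change of 0.44. Hist1h2bc, the H2b gene with the most RNA, had 37.1 and 37.4 FPKM with shWDR43, against 20.7 and 23.3 FPKM with shCtl, a log2 fold change of 0.74 ± 0.13 (SE; limma, adjusted p = 0.00464). Hist1h2bk had 14.1 and 15.8 FPKM with shWDR43, against 6.2 and 8.2 FPKM with shCtl (0.97), Hist1h2bn had 6.1 and 6.2 FPKM with shWDR43, against 3.9 and 1.8 FPKM with shCtl (0.95), and Hist2h2bb had 13.5 and 11.3 FPKM with shWDR43, against 9.5 and 6.2 FPKM with shCtl (0.62). In all 4 the shWDR43 libraries were above the shCtl libraries. Hist1h2bl, second by RNA in this class, had 16 and 11.3 FPKM with shWDR43, against 7.2 and 10.4 FPKM with shCtl, and was not called (0.58, adjusted p = 0.0638). The lower gene, Hist1h2bm, had 2.5 and 2.9 FPKM with shWDR43, against 4.3 and 5.0 FPKM with shCtl (-0.61, adjusted p = 0.0202). With the libraries centred on their median Hist1h2bm was not called and 7 H2b genes were higher. The extremes of the class were genes with wide spread: Hist1h2bb had 8.5 and 3.4 FPKM with shWDR43, against a value listed at 0 and 4.5 FPKM with shCtl, and Hist1h2bh had 0.5 and 5.3 FPKM with shWDR43, against 3.1 and 7.3 FPKM with shCtl, and neither was called (1.46 and -0.92).

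In neighbouring pairs of H2a and H2b genes, 2 of the 8 pairs with both genes tested had the H2a gene called lower and the H2b gene called higher. Pairs were taken as H2a and H2b genes with at most 500 bp between their loci, a definition made after the values were seen, which gave 12 pairs with gaps of 167 to 334 bp. Both partners were tested in 8 pairs, all in Hist1. The H2a gene had the lower log2 fold change in 8 of 8, and in 7 of 8 it was below 0 while its H2b neighbour was above 0. The H2a gene was called lower in 7 pairs, and the H2b gene was called higher in 3, lower in 0 and not called in 5. The pairs with both genes called were Hist1h2ah/Hist1h2bk (-1.52 and 0.97) and Hist1h2ak/Hist1h2bn (-1.85 and 0.95). Hist1h2ac/Hist1h2bc is the pair in which only the H2b gene was called, and Hist1h2ao/Hist1h2bj (-1.55 and -0.34) the one with both values below 0. Hist1h2bj had 4.9 and 1.8 FPKM with shWDR43, against 2.3 and 7.0 FPKM with shCtl, so its libraries overlapped. Strand was known from RefSeq for 9 of the 12 pairs, of which 8 lay on opposite strands with 163 to 239 shared promoter bases. Hist1h2ac/Hist1h2bc was not among those 9.

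**Figure D2:**
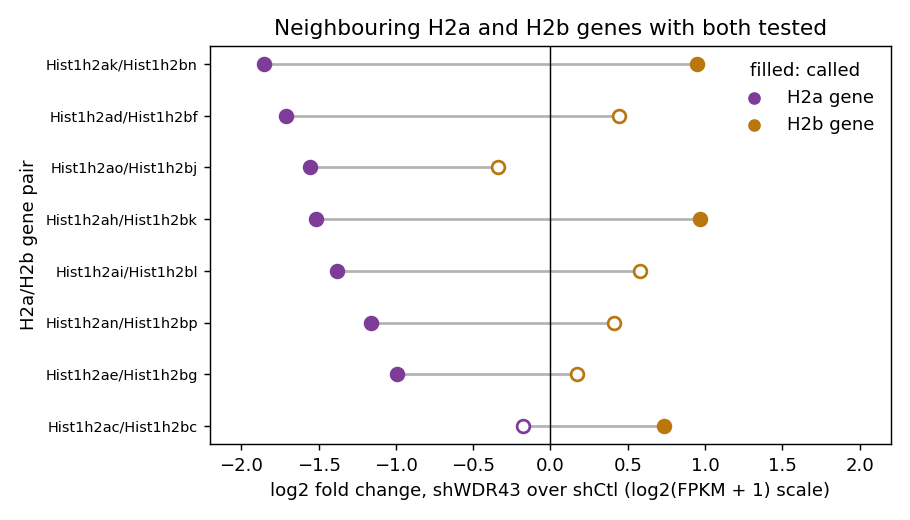
Log2 fold change (shWDR43 over shCtl, log2(FPKM + 1) scale) of the H2a gene (purple) and the H2b gene (orange) in the 8 neighbouring pairs with both tested, filled where called. In every pair the H2a gene lies to the left, and the H2a values run from -1.85 to -0.18 while the H2b values run from -0.34 to 0.97.

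H3 and H4 form the inner tetramer of the nucleosome, and none of their tested genes was called lower. Of 12 tested H4 genes 5 were higher, 0 lower and 7 not called (median log2 fold change 0.68), and 11 of 12 lay above 0. The H4 count moved with the libraries used: by an unadjusted p under 0.05, 7 H4 genes were higher with all libraries, 4 without shCtl 1, 2 without shCtl 2, 2 without shWDR43 1, and 0, with 1 lower, without shWDR43 2. The count of lower H2a genes by the same measure was 10 with all libraries and 8 to 10 in those fits. Hist1h4i (NM_175656, chromosome 13, 22132685 to 22133221) had 20.6 and 23.6 FPKM with shWDR43, against 6.9 and 14.7 FPKM with shCtl, a log2 fold change of 1.05 ± 0.30 (SE; limma, adjusted p = 0.025). Hist1h4a, the H4 gene with the most RNA, had 18.7 and 24.0 FPKM with shWDR43, against 11.7 and 14.0 FPKM with shCtl (0.69). Both groups stood apart in these genes, although the shCtl libraries of Hist1h4i differed from each other by more than the shWDR43 libraries did. Hist1h4m had 11 and 11.2 FPKM with shWDR43, against 7.8 and 4.3 FPKM with shCtl (0.83), with a locus that overlaps Hist1h4n, which was not called (0.03). Hist1h4d (0.77) and Hist1h4h (0.54) were the other higher genes. Hist1h4k, with 5.4 and 7.4 FPKM with shWDR43, against 8.9 and 8.4 FPKM with shCtl, had the lowest log2 fold change (-0.40) and was not called. Hist2h4, whose libraries overlapped, had 15.4 and 6.4 FPKM with shWDR43 and 15.9 and 2.7 FPKM with shCtl, and was not called (0.48).

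For H3, 3 of 12 tested genes were higher, 0 lower and 9 not called (median log2 fold change 0.33). Hist1h3h had 6.9 and 8.3 FPKM with shWDR43, against 4.6 and 4.8 FPKM with shCtl (0.59 ± 0.15, SE; limma, adjusted p = 0.017). Hist1h3d had 5.9 and 6.6 FPKM with shWDR43, against 4.1 and 3.6 FPKM with shCtl (0.58), and Hist2h3c1 had 3.0 and 4.1 FPKM with shWDR43, against 2.1 and 1.8 FPKM with shCtl (0.62). The H3 genes with the most RNA were not called: Hist1h3c had 12.7 and 4.4 FPKM with shWDR43, against 7.8 and 8.4 FPKM with shCtl (-0.08), and Hist1h3e had 5.9 and 9.9 FPKM with shWDR43, against 7.7 and 9.0 FPKM with shCtl (-0.10). In both the libraries overlapped. The range of the class ran from Hist1h3f (-0.22) to Hist1h3g (1.07), neither called, and 1 shCtl library of Hist1h3g was listed at 0.

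Of the H1 genes, whose products bind linker DNA between nucleosomes, Hist1h1c alone was called. Hist1h1c (NM_015786, chromosome 13, 23830676 to 23832236) had 16 and 18 FPKM with shWDR43, against 6.8 and 8.8 FPKM with shCtl, a log2 fold change of 1.04 ± 0.16 (SE; limma, adjusted p = 0.00307). Hist1h1a had 9.8 and 9.9 FPKM with shWDR43, against 7.7 and 13.4 FPKM with shCtl (-0.04), and Hist1h1b had 7.7 and 3.1 FPKM with shWDR43, against 3.5 and 6.6 FPKM with shCtl (0.03). Hist1h1d had 3.5 and 3.5 FPKM with shWDR43, against 3.4 and 3.4 FPKM with shCtl (0.03), and Hist1h1e had 4.2 and 3.8 FPKM with shWDR43, against 4.2 and 5.6 FPKM with shCtl (-0.23). None of these 4 genes was called, and their standard errors ran from 0.15 for Hist1h1d to 0.38 for Hist1h1b. The testis-specific Hist1h1t had 0.6 FPKM and a value listed at 0 with shWDR43, against a value listed at 0 and 0.5 FPKM with shCtl, and was not tested.

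Summed over each class, the captured RNA of H2a was lower in the shWDR43 libraries, while that of H2b, H3 and H4 was higher. The difference between these sums of classes was not tested. The 17 H2a genes summed to 362 and 315 FPKM with shWDR43, against 875 and 1071 FPKM with shCtl, a log2 ratio of means of -1.52. The 17 H2b genes summed to 126.8 and 111.3 FPKM with shWDR43, against 73.5 and 92.0 FPKM with shCtl (0.52), the 13 H4 genes to 106.5 and 110.9 FPKM with shWDR43, against 79.2 and 60.6 FPKM with shCtl (0.64), and the 12 H3 genes to 64.5 and 61.3 FPKM with shWDR43, against 42.5 and 56.3 FPKM with shCtl (0.35). The groups did not overlap in any of these 4 classes. The 6 H1 genes summed to 41.8 and 38.3 FPKM with shWDR43, against 25.6 and 38.3 FPKM with shCtl (0.33), and without Hist1h1c their log2 ratio was -0.07. H2a made up 50.6% of the summed histone RNA with shWDR43, against 80.6% with shCtl. All 65 genes summed to 702 and 637 FPKM with shWDR43, against 1096 and 1318 FPKM with shCtl (-0.85), and the 48 genes outside H2a to 340 and 322 FPKM with shWDR43, against 221 and 247 FPKM with shCtl (0.50). An exact permutation test of 2 against 2 libraries gave p = 0.667 for H1 and 0.333, two-sided and the smallest it can give, for each other sum. With each library divided by its total FPKM the log2 ratios were -0.93 for H2a, 1.11 for H2b, 1.22 for H4, 0.94 for H3 and -0.26 for all members.

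**Figure D3:**
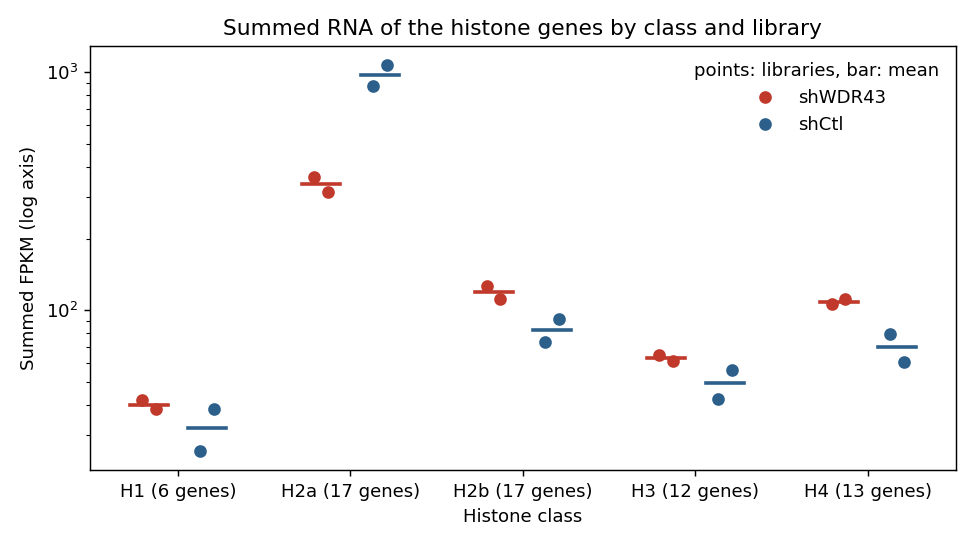
Summed FPKM (log axis) of the genes of each histone class in each library, shWDR43 in red and shCtl in blue, with the bar at the group mean. H2a is the class in which both shWDR43 libraries (362 and 315 FPKM) lie below both shCtl libraries (875 and 1071 FPKM).

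By position, the Hist1 cluster held 11 higher and 11 lower genes of 47 tested. Its second block, 4 genes between 22127035 and 22134818 of chromosome 13, had all 4 called: Hist1h2ah and Hist1h2ag lower, and Hist1h2bk and Hist1h4i higher. The first block had 3 higher and 5 lower genes of 16 tested, and the third 6 higher and 4 lower of 27. In Hist2, 3 of 6 tested genes were higher and 0 lower (median log2 fold change 0.55). Of the Hist3 genes 2 were tested and 0 called, and Hist4h4, at 0.4 and 0.1 FPKM with shWDR43 and 0.2 and 0.3 FPKM with shCtl, was not tested. Among the 53 genes whose locus overlaps no other locus of the table, 12 of 47 tested were higher and 10 lower. Near-identical copies within a class can share reads, so values of single genes are less certain than those of a class.

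The authors' deposited table gives a signed fold change and an unadjusted p of its own for 62 of the 65 genes. By the authors' deposited table, 9 histone genes were at least 1.5-fold lower with p under 0.05, 8 of them H2a, against 19.6% of all genes with a p. At least 1.5-fold higher by the authors' deposited table were 7, against 5.35% of all genes with a p. These were 3 H2b, 2 H3, 1 H1 and 1 H2a gene, with 0 H4 genes. The p is listed to 2 decimals, and genes listed at 0.05 were not counted. Those were Hist1h4m, Hist1h4a, Hist2h3c1 and Hist3h2a among genes with higher values and Hist1h2an among those with lower values.

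Genes that make or handle histone mRNA and protein were mostly lower with shWDR43. Of 28 genes of histone mRNA transcription and 3′ end processing 22 were lower, 0 higher and 6 not called, with a median log2 fold change of -0.71. Slbp, the stem-loop binding protein, had 42.5 and 38.9 FPKM with shWDR43, against 91.0 and 94.8 FPKM with shCtl, a log2 fold change of -1.17 ± 0.12 (SE; limma, adjusted p = 0.00123). Ccne1 and Ccne2, the E cyclins whose kinase phosphorylates NPAT, fell by 1.87 and 1.32 on the log2 scale. At the other end Lsm11 (0.06), a U7 particle subunit at 1.4 FPKM or less in every library, and Sympk (-0.14), a scaffold of the cleavage complex, were not called. After centring, 14 of the 28 were lower and 0 higher.

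Of 10 tested replication-independent histone variants, whose mRNA is polyadenylated and not confined to S phase, 8 were lower and 0 higher (median -0.55). H2afz, which encodes the variant H2A.Z, had 452.9 and 394.3 FPKM with shWDR43, against 1281.9 and 1365.3 FPKM with shCtl, a log2 fold change of -1.64 ± 0.11 (SE; limma, adjusted p = 0.000802). H3f3a fell by 1.04 on the log2 scale, while H2afj (0.20) and H2afy2 (-0.32) were not called. After centring 2 of the 10 were lower. Of 22 histone chaperones and importers 20 were lower and 0 higher (median -0.77), led by Nasp (-1.51), which binds H1 and H3, and Anp32e (-1.48), which removes H2A.Z. Ubn1 (0.01) and Cabin1 (-0.33), of the HIRA complex, were not called, and after centring 11 of the 22 were lower. All 20 genes of S phase DNA synthesis were lower, with a median of -0.91, from Pcna (-1.48), the sliding clamp of the replication fork, and Cdc6 (-1.26), which loads the helicase, to Pole (-0.62) and Prim2 (-0.41). These lists are set against a background of 42.7% lower and a median of -0.39 over all tested genes.

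WDR43 peaks lay at most histone genes in the DMSO, FB and cFB-KI lists. The ActD list had none there and few at other protein-coding loci. A gene was counted when a peak shared at least 1 bp with its locus extended by 500 bp on both sides. In the single ActD list 0 of 65 genes had a WDR43 peak, in the DRB list 25 of 65 and in the DMSO list 64 of 65. Over 20128 other protein-coding loci the shares were 0.621% with ActD, 9.45% with DRB and 54.8% with DMSO. The lists held 407 peaks with ActD, 4426 with DRB and 31189 with DMSO. Of the genes with a DMSO peak 39.1% also had a DRB peak, against 15.8% of the other loci with a DMSO peak, and none had a DRB peak alone. Among 268 other protein-coding loci of at most 2 kb with a mean of at least 1 FPKM, which are more like histone genes in length, 7.09% had a DRB peak and 59.0% a DMSO peak. Of all other coding loci with a mean of at least 1 FPKM, 12.5% had a DRB peak and 77.4% a DMSO peak. With ActD the shares were 0% of those short loci and 0.622% of all other coding loci with RNA. The 0 of 65 histone genes with ActD is thus close to other loci. With 1 list per treatment there is no replicate check, and peaks that stand below the threshold of a list are not seen.

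The DRB peaks lay on 9 of 17 H2a, 7 of 17 H2b, 5 of 12 H3, 2 of 13 H4 and 2 of 6 H1 genes. They were narrow, with a median width of 293 bp (150 to 364 bp), against 744 bp (229 to 2436 bp) for DMSO peaks at histone genes, while all peaks of those lists had medians of 173 and 236 bp. At the pair Hist1h2ah/Hist1h2bk the DRB peak (chromosome 13, 22127759 to 22128081, 323 bp) lay within Hist1h2bk (22127756 to 22128136), whereas the DMSO peak (22126847 to 22128434, 1588 bp) spanned both genes. The top histone peak of the DRB list was at Hist2h3c2 (chromosome 3, 96042656 to 96042954) and that of the DMSO list at Hist2h3c2 and Hist2h2aa2 (96042229 to 96044513). The count with DRB depended on the rule: 9 genes had at least 50% of their locus covered, and 2 had a peak with a score of at least 100.

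In the other WDR43 lists 65 of 65 genes had a peak in FB cells and 58 of 65 (89.2%) in cFB-KI cells. Other protein-coding loci had a peak at 65.5% in FB and 63.4% in cFB-KI cells, and the short loci with RNA at 81.0% and 71.3%. All other coding loci with a mean of at least 1 FPKM had a peak at 89.7% and 86.8%. The share of histone genes in cFB-KI cells was thus close to that of coding loci with RNA. In FB cells the peak over Hist2h3c2 and Hist2h2aa2 (chromosome 3, 96042270 to 96044559) was in the top 0.0313% of 41552 peaks by the authors' score, and 52 of the 65 histone genes were in the top 10% of that list. In the cFB-KI list 9 of the 58 genes with a peak were in the top 10% (15.5%), and in the DMSO list 33 of 64 (51.6%). These counts take the best-ranked peak of each gene, and neighbours under 1 peak each count. The same share was not computed for other loci, so whether histone genes rank above them was not tested. In cFB-KI cells the top histone peak was at Hist2h3c1 (chromosome 3, 96048922 to 96051365). The genes with no cFB-KI peak were Hist1h1a, Hist1h1b, Hist1h1t, Hist1h3d, Hist1h3h, Hist1h4m and Hist1h4n. Hist1h1t, of which little RNA was seen, was also the gene with no DMSO peak.

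**Figure D4:**
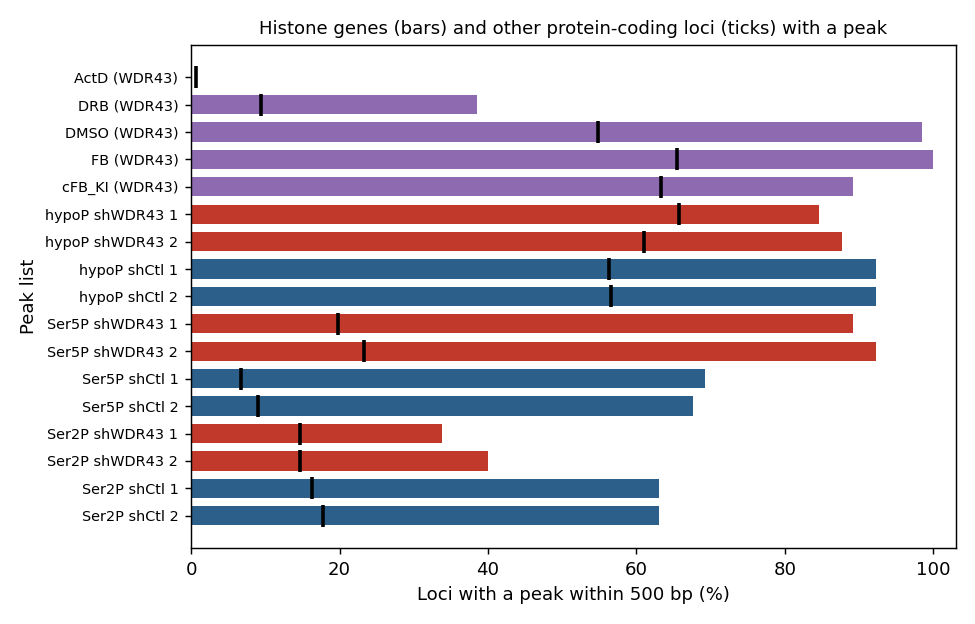
Share of the 65 histone genes (bars) and of 20128 other protein-coding loci (black ticks) with a peak within 500 bp in each of the 17 lists. The bar exceeds the tick, which counts silent loci too, in 16 lists and is 0 under ActD. In the hypoP lists of shWDR43 the bars (84.6% and 87.7%) are below the 95.0% and 92.9% of other coding loci with RNA, and the red shWDR43 bars are longer than the blue shCtl bars for Ser5P and shorter for Ser2P and hypoP.

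Pol II peaks at histone genes differed by form between the groups. Ser5P peaks were on 58 and 60 of 65 genes in the shWDR43 lists, against 45 and 44 in the shCtl lists, where other protein-coding loci had 19.8% and 23.3% with shWDR43, against 6.78% and 8.98% with shCtl. Ser2P peaks were on 22 and 26 genes in the shWDR43 lists, against 41 and 41 in the shCtl lists, where other loci had 14.7% and 14.7% with shWDR43, against 16.3% and 17.8% with shCtl. HypoP peaks were on 55 and 57 genes in the shWDR43 lists, against 60 and 60 in the shCtl lists, where other loci had 65.8% and 61.0% with shWDR43, against 56.3% and 56.5% with shCtl. Those shares include silent loci. Among the short loci with RNA described above, 29.5% and 30.6% had a Ser5P peak with shWDR43, against 7.84% and 10.1% with shCtl, and 30.6% and 32.5% a Ser2P peak with shWDR43, against 34.3% and 38.4% with shCtl. The histone genes had Ser2P peaks at 33.8% and 40.0% with shWDR43, against 63.1% and 63.1% with shCtl. For hypoP the short loci with RNA had 83.2% and 81.7% with shWDR43, against 79.5% and 79.1% with shCtl, close to the histone genes with shWDR43 (84.6% and 87.7%) and below them with shCtl (92.3% and 92.3%). All other coding loci with a mean of at least 1 FPKM had hypoP peaks at 95.0% and 92.9% with shWDR43, against 89.6% and 89.5% with shCtl. The lists of a group differed by at most 4 genes, less than the difference between the groups for Ser5P and Ser2P, and an exact permutation test of 2 against 2 lists cannot go below 0.333. Neighbours often lie under 1 peak: the Ser2P genes were under 16 and 20 distinct peaks with shWDR43, against 30 and 30 with shCtl, and the Ser5P genes under 36 and 37 with shWDR43, against 32 and 33 with shCtl. The lists differ in length, with 6535 and 7589 Ser5P peaks with shWDR43, against 1879 and 2520 with shCtl, so counts move with how much was called. The Ser2P lists are closer, with 3501 and 3504 peaks with shWDR43, against 3878 and 4319 with shCtl.

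For Ser2P, 10 genes had a peak in both shCtl lists and in neither shWDR43 list, and 0 genes the reverse, against 1.92% and 0.800% of other protein-coding loci and 3.11% and 1.28% of those with RNA. Of the 36 histone genes with a Ser2P peak in both shCtl lists these 10 were 27.8%, against 14.7% of the other loci with a peak in both. They were Hist1h3h, Hist1h3i, Hist1h2ah, Hist1h2bk, Hist1h4i, Hist1h2ae, Hist1h2bg, Hist1h4d, Hist2h2be and Hist2h4. Their RNA was called higher for 4 (Hist1h3h, Hist1h2bk, Hist1h4i and Hist1h4d) and lower for 2 (Hist1h2ah and Hist1h2ae). Another 14 genes had a Ser2P peak in all 4 lists, among them 4 of the 6 H1 genes. They were 21.5% of the histone genes, against 9.04% of other loci and 14.7% of those with RNA. No Ser2P peak was found at 17 genes (26.15%), against 75.6% of other loci and 60.7% of those with RNA. By class, Ser2P peaks lay on 5 and 5 of 17 H2a genes with shWDR43, against 9 and 9 with shCtl. On H2b they lay at 5 and 3 of 17 genes with shWDR43, against 8 and 8 with shCtl. The counts were 3 and 7 of 13 H4 genes with shWDR43, against 9 and 10 with shCtl. They were 5 and 7 of 12 H3 genes with shWDR43, against 11 and 9 with shCtl. H1 had 4 and 4 of 6 genes with shWDR43, against 4 and 5 with shCtl. The top histone peak of the Ser2P lists was at Hist1h1d and over Hist1h2ac and Hist1h2bc with shWDR43, and at Hist1h1c and at Hist1h1d with shCtl.

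For Ser5P, 7 genes had a peak in both shWDR43 lists and in neither shCtl list, 10.8% of the histone genes, against 7.39% of other loci and 12.1% of those with RNA, and 0 genes the reverse, against 0.338%. They were Hist1h2ad, Hist1h2af, Hist1h2bb, Hist1h2bf, Hist1h2bh, Hist3h2a and Hist3h2bb-ps, and the RNA of Hist1h2ad and Hist1h2af was lower. All 4 Ser5P lists had a peak at 38 genes, 58.5% of the histone genes, against 1.60% of other loci. At Hist1h2ah/Hist1h2bk a Ser5P peak spanned both genes in all 4 lists (22126131 to 22128994 and 22126109 to 22128871 with shWDR43, 22126787 to 22128325 and 22126802 to 22128353 with shCtl). The top histone peak was at Hist1h1c and at Hist1h1d in the shWDR43 lists, and over Hist2h3c2 and Hist2h2aa2 and at Hist1h1c in the shCtl lists.

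HypoP peaks were broad over histone genes, with median widths of 4134 and 3730 bp with shWDR43, against 3183 and 3220 bp with shCtl. Those medians are over 28 and 30 distinct peaks with shWDR43, against 32 and 32 with shCtl, so they do not compare the same peaks. All 4 lists had a peak at 55 genes, 84.6% of the histone genes. Of other protein-coding loci 54.0% had a peak in all 4 lists, and of those with RNA 87.3%. The top histone peak of every hypoP list lay over Hist1h2bj, Hist1h2ao, Hist1h2ap, Hist1h4m and Hist1h4n (chromosome 13, 21899295 to 21904340 and 21900102 to 21904577 with shWDR43, 21900278 to 21904410 and 21900107 to 21904690 with shCtl), where the most abundant member is encoded. A peak in both shCtl lists and in neither shWDR43 list was found at 3 genes (0.114% of other loci), and these are the neighbours Hist1h2bl, Hist1h2ai and Hist1h3h under 1 peak (21806470 to 21811503 and 21806435 to 21811687 in the shCtl lists).

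Over all 17 lists a histone gene had peaks in a median of 12. The 7 genes with peaks in 16 lists, every list but ActD, were Hist1h1d, Hist1h2ac, Hist1h2bc, Hist2h3c2, Hist2h2aa2, Hist2h3b and Hist2h2bb. Hist1h2bm and Hist1h4b had peaks in 3 lists, all of WDR43, and in none of the 12 Pol II lists, although both had RNA (2.7 ± 0.283 with shWDR43 and 4.65 ± 0.495 FPKM with shCtl for Hist1h2bm, SD, n = 2 each). Peaks as well as RNA rest on reads that near-identical copies can share.

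**Figure D5:**
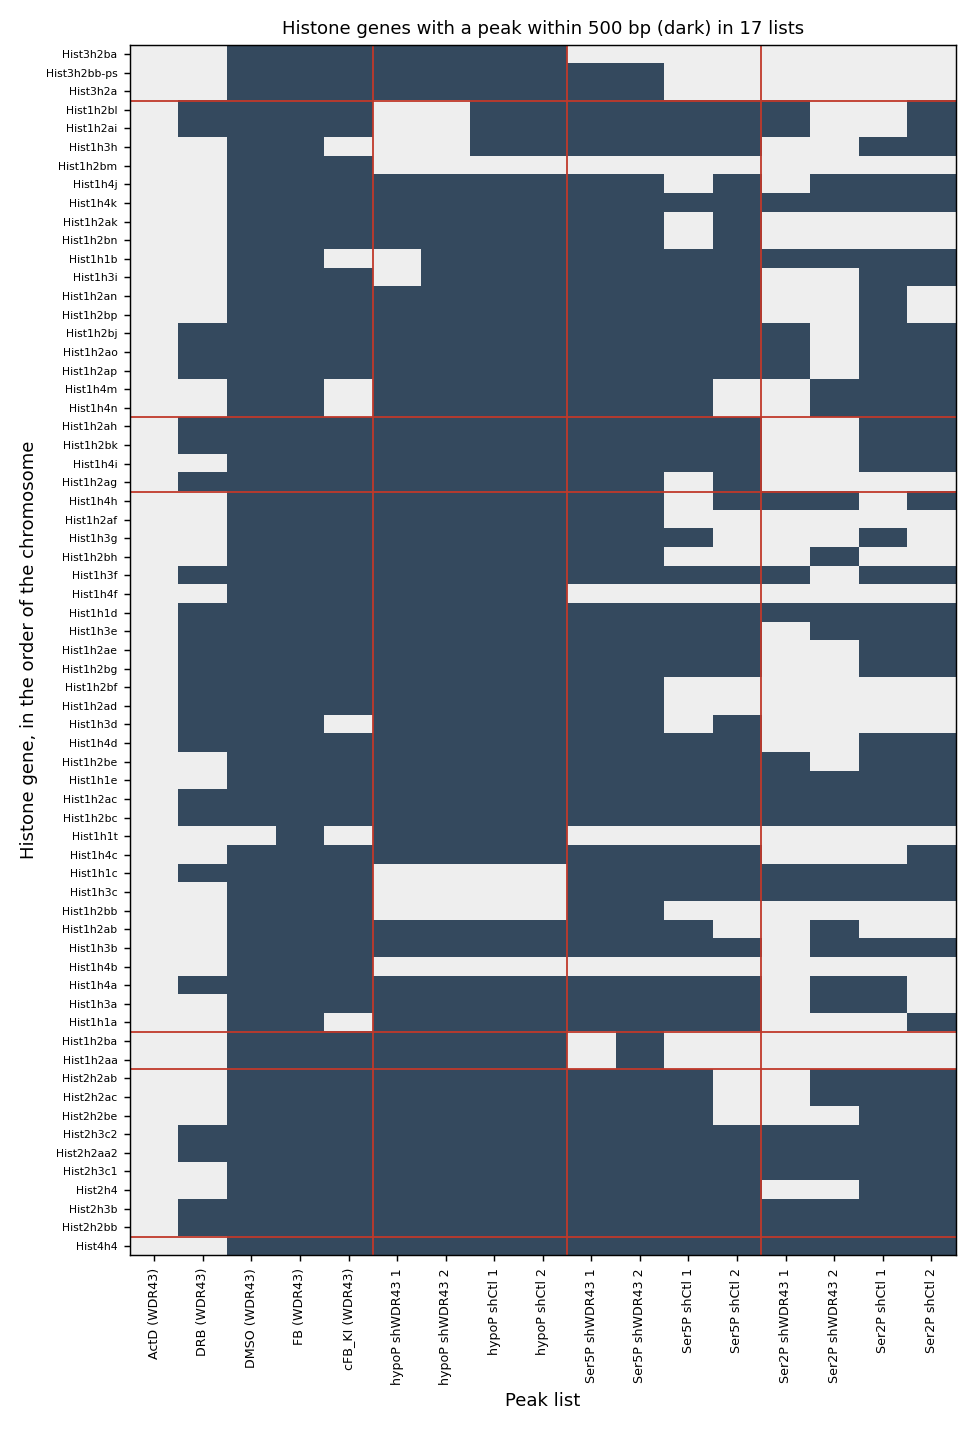
Peaks within 500 bp (dark) at each of the 65 histone genes, in the order of the chromosome, for the 17 lists, with red lines between clusters or blocks and between antibodies. The ActD column is empty, in a list with a peak at 0.621% of other protein-coding loci. Neighbours tend to share peaks, and the Ser2P columns are dark at fewer genes with shWDR43 (22 and 26) than with shCtl (41 and 41).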

How the data were processed

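The series has 27 labelled samples; 21 were used, and 6 are not analysed here. RNA values are FPKM, 1 per gene and library, in a table deposited by the authors with 38582 genes. The unit was inferred from Cufflinks, which the submitters' processing notes name with TopHat. Per the file headers the groups hold 2 replicates on a spike-in scale; the steps of that scaling, the peak caller's settings and read depth are not given in the sources. The same table deposited by the authors holds a signed fold score and an unadjusted p-value. The authors also deposited 17 peak lists with a score per peak, at least 50 in each list; the submitters' processing notes name Bowtie2 and the build mm9. Each list belongs to 1 library.

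Members, gene lists and tests were chosen with earlier results of these data known. Loci were read as 0-based starts and are printed 1-based. The test was that of limma (version 3.58.1, R 4.3.3), its variance prior following intensity, on log2(FPKM + 1) for the 12452 genes that averaged at least 1 FPKM, with Benjamini-Hochberg adjustment and a threshold of 0.05; this scale understates changes of low genes. The fit was also run on simulated data with independent noise and no shift shared by all genes. The real data have a median log2 fold change of -0.39, so that run does not check the calls made here. Named were Wdr43, every called member, the H1 genes, per class the 2 members with the most RNA and the extremes of log2 fold change, per list the 2 highest and 2 lowest genes and Slbp, and for peaks the members in most and fewest lists and at the top peak of each list; other genes were named after their values were seen. Libraries with the same number did not deviate together (correlation 0.0504) and the labels state no pairing, so the fit was unpaired. Whether the cultures were made in pairs is not known. Alternatives were other pseudocounts (0.1 and 0.5), no filter, centring, no trend, a replicate block, leaving out each library, other locus extensions, 50% of the locus covered and a score of at least 100. Promoters were matched to RefSeq by transcript accession for 64 of 65 members. Marker lists were used to check the cell type. Counting was not stated to use strand.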

Additional observations from a re-analysis of the deposited data

How the results depend on the processing

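The counts of 14 higher and 11 lower histone genes were the same with pseudocounts of 0.5 or 0.1, were 13 and 11 with no intensity trend, and were 12 and 10 among genes whose locus overlaps no other locus, a setting added after seeing the data. With a replicate block, on numbers that the samples only share, they were 16 and 12. With the libraries centred on their median 22 were higher and 9 lower. With no filter on low values, and without any 1 of the 4 RNA libraries (0 to 0 higher and 0 to 0 lower), no histone gene was called, and the cause was not tested for the missing filter. All 25 called genes kept their sign under all 10 alternative fits. For the lists, no filter left 2 of 22 lower genes of mRNA processing, 1 of 8 variants, 1 of 20 chaperones and 2 of 20 S phase genes.

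With each library divided by its total FPKM the log2 ratios of the sums were -0.26 for all members, 0.92 for H1, -0.93 for H2a, 1.11 for H2b, 0.94 for H3 and 1.22 for H4, and leaving out the top member or 1 library moved each by less than the spread between libraries. Over those left-out libraries the ratio for H2a ran from -1.66 to -1.37. For peaks of a score of at least 100 the mean number of genes per list was 10 with shWDR43 and 23.5 with shCtl for Ser2P, 56.0 with shWDR43 and 24.0 with shCtl for Ser5P, and 2 for WDR43 with DRB. With at least 50% of the locus covered it was 15.5 with shWDR43 and 32.5 with shCtl for Ser2P, and 9 for WDR43 with DRB.

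Of the named genes, none that was called changed sign. Centring turned the log2 fold change to 0.29 for Hist1h1a, 0.10 for Hist1h1e, 0.25 for Hist1h3c, 0.22 for Hist1h3e, 0.11 for Hist1h3f, 0.0018 for Cabin1, 0.012 for H2afy2 and 0.19 for Sympk. Over the fits that leave out 1 library, the log2 fold change ran from -0.011 to 0.40 for H2afj, -0.41 to 0.32 for Hist1h1a, -0.51 to 0.57 for Hist1h1b, -1.96 to 0.11 for Hist1h2bh, -0.75 to 0.59 for Hist1h3c, -0.43 to 0.22 for Hist1h3e, -0.32 to 2.46 for Hist1h3g and -0.11 to 0.14 for Ubn1, none of which was called. With 2 libraries per group, unknown depth and a mostly uncaptured kind of RNA, a gene that was not called is not shown to be unchanged, and peaks give presence above a threshold, not amount.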

Other observations

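Around Hist1h1c the hypoP lists hold no peak while other Pol II lists do, and whether the hypoP lists are complete there is not known. Hist1h1c, Hist1h3c and Hist1h2bb, neighbours on chromosome 13, had no hypoP peak in any of the 4 lists, although Hist1h1c and Hist1h3c had Ser5P and Ser2P peaks in all 8 lists of those forms. The hypoP peak next to them began at 23842313 and 23842349 with shWDR43 and at 23842398 and 23842310 with shCtl, over Hist1h2ab and Hist1h3b. At Hist1h1c the Ser5P peaks ran from 23830128 to 23832473 and from 23830326 to 23832605 with shWDR43, against 23830137 to 23831945 and 23830234 to 23831927 with shCtl.

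The testis-specific pair Hist1h2ba and Hist1h2aa, which stands apart as the fourth Hist1 block, had 0.4 and 0.3 FPKM (Hist1h2ba) with shWDR43, against 0.6 and 1.0 FPKM with shCtl, and Hist1h2aa was listed at 0. Both had WDR43 peaks in the DMSO, FB and cFB-KI lists and a hypoP peak in all 4 lists, and neither had a Ser2P peak in any list.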
